A study of Mus musculus with 8 samples.

Results

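The S100 genes encode small calcium-binding proteins, and 10 of them were followed here in brown adipose tissue (BAT): S100a1, S100a4, S100a6, S100a8, S100a9, S100a10, S100a11, S100a13, S100a16 and S100b. They were taken by symbol from a count table of 56953 genes, and all 10 had enough counts to be tested. The RNA came from the BAT of C57BL/6J wild-type mice of either sex that were 8 to 10 weeks old at injection. The 4 CTR mice received PBS under the skin of the flank and the 4 CAC mice received 3000000 Lewis lung carcinoma (LLC) cells, a mouse lung tumour line that causes cancer-associated cachexia (CAC). Mice without a tumour mass were left out by the authors, each mouse gave 1 library, and the labels do not give the sex of each mouse. The comparison addresses which S100 genes differ in BAT between tumour-bearing and control mice.

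S100 proteins carry a pair of EF-hand calcium sites and mostly work as dimers. Inside cells they bind annexins, myosin and other partners when calcium rises, and several are released and act on receptors such as TLR4 and RAGE (gene Ager). S100A8 and S100A9 together form calprotectin, a zinc- and manganese-binding alarmin that is very abundant in neutrophils and is also made by monocytes. S100A4 is found in fibroblasts and in myeloid and lymphoid cells, S100A6, S100A10, S100A11, S100A13 and S100A16 are made by many cell types, S100A1 is best known from heart and skeletal muscle, and S100B from glia, Schwann cells and fat cells.

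Most of these genes lie in 1 cluster on chromosome 3 of GRCm38 (GENCODE M21 coordinates). S100a1 lies at chr3:90511034-90514392 on the minus strand, S100a13 at chr3:90514435-90524581, S100a16 at chr3:90537254-90543151, S100a4 at chr3:90603771-90606045, S100a6 at chr3:90612882-90624181 and S100a8 at chr3:90668978-90670035, all on the plus strand. S100a9 lies at chr3:90692632-90695721 on the minus strand. S100a11 (chr3:93520488-93526287) and S100a10 (chr3:93555080-93564643) lie farther along the same chromosome on the plus strand, and S100b lies on chromosome 10 at chr10:76253853-76261159 on the plus strand, within the span of Dip2a on the opposite strand. An exon of S100a4 overlaps the noncoding gene Gm42674 on the same strand, and the other 8 overlap no other annotated gene. Between S100a1 and S100a10 the annotation and the count table share 117 genes, of which 102 are no S100 genes. Of those 102 genes, which include the cornified envelope genes of the skin, 93 had no read in any library and 1 passed the low-count filter (Adrm1b, log2 fold change 0.12, edgeR adjusted p = 0.789). Outside the family, this stretch of the genome thus offered 1 gene for comparison with S100a8, S100a9 and S100a4, and it was not called. In 4 libraries Adrm1b held fractions of reads, which it shares with another place in the annotation or genome.

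The promoters of the 3 S100 genes that rose are shown because they can be set against those of the other members. RefSeq windows of 300 bases (GRCm38.p6, 250 bases before and 50 bases from the transcript start) were at hand for 9 of the 10 members, all except S100a10, with a further start for S100a16. The sequences run 5′ to 3′ on the strand of the gene, and capitals mark matches to the motifs searched.
S100a8 (chr3:90668821-90669120, plus strand): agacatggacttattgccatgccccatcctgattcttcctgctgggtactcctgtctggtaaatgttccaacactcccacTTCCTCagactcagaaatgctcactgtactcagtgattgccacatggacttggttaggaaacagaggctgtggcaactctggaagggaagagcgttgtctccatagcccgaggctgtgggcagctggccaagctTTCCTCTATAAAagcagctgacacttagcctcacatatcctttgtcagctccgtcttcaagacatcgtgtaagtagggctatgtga
S100a9 (chr3:90695672-90695971, minus strand): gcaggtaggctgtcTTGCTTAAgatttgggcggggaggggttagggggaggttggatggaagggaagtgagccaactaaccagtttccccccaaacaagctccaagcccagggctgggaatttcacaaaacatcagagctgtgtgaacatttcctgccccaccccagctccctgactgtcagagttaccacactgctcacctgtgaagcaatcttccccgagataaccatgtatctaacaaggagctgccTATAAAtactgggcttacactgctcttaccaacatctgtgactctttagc
S100a4 (chr3:90603520-90603819, plus strand): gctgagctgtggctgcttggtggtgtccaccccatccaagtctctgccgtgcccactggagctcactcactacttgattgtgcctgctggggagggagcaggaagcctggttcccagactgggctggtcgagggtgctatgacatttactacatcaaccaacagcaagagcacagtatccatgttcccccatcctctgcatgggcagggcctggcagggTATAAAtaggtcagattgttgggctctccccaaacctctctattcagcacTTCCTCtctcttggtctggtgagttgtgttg

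The TATA motif TATAAA, searched on the gene's strand, was present in all 3 of these windows and in none of the windows of the 6 other members, against 8.32% of 32851 mouse promoter windows of the same length. It began 30 bases before the RefSeq start in S100a8, 31 bases before it in S100a4 and at the start itself in S100a9. The letters GAGGAA of the factor PU.1, searched on both strands and present in 28.3% of all windows, matched in 4 of the 9 members (S100a4, S100a8, S100a11 and S100a16). TTGCNNAA, a C/EBP motif found in 10.8% of windows, matched in S100a9 alone. TGANTCA, an AP-1 motif found in 7.81%, matched in S100a11 and S100a16. TTCNNNGAA (STAT, 8.3% of windows) and an NF-kB motif (GGGNN followed by TTTCC, 1.63%) matched in 0 of the 9. These are matches of letters in a window and not measured binding sites.

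Libraries held 2454493 to 4827956 counts in CTR and 1823167 to 3392538 in CAC, so that a gene without a read may still have been present at up to 3 counts, which is 0.661 to 1.62 CPM (the count relative to library size, with TMM scaling for library composition). Such limits cover counting error only. Markers of brown adipocytes were abundant in both groups, with a summed level of 20696 to 22805 CPM in CTR and 20022 to 22746 CPM in CAC over 16 genes that include Ucp1, Cidea and Adipoq. The 10 S100 genes together took 0.174% to 0.242% of the counts of a library.

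By edgeR's quasi-likelihood test at an adjusted p of 0.05, 3 of the 10 S100 genes were higher in CAC and 0 were lower, against 0.932% of all 9876 genes tested (0.739% higher and 0.192% lower). At an unadjusted p below 0.05, 4 members were higher, against 7.01% of all genes for that direction. The 3 genes were S100a8, S100a9 and S100a4. S100a8 and S100a9 passed the low-count filter only through the CAC libraries, since 1 and 0 of their CTR libraries reached its level, so that they could be tested only because they were high in CAC, and the count of 3 is a description. Of the 8 members that passed in both groups, 1 was called. The median log2 fold change of the 10 was 0.14, against -4.67e-05 over all genes tested, and the 7 members that were not called lay between -0.26 and 0.43. The groups did not overlap in 4 members, all of them higher in CAC, against 3.64% of all genes tested. The gene beyond the 3 was S100a6.

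**Figure D1:**
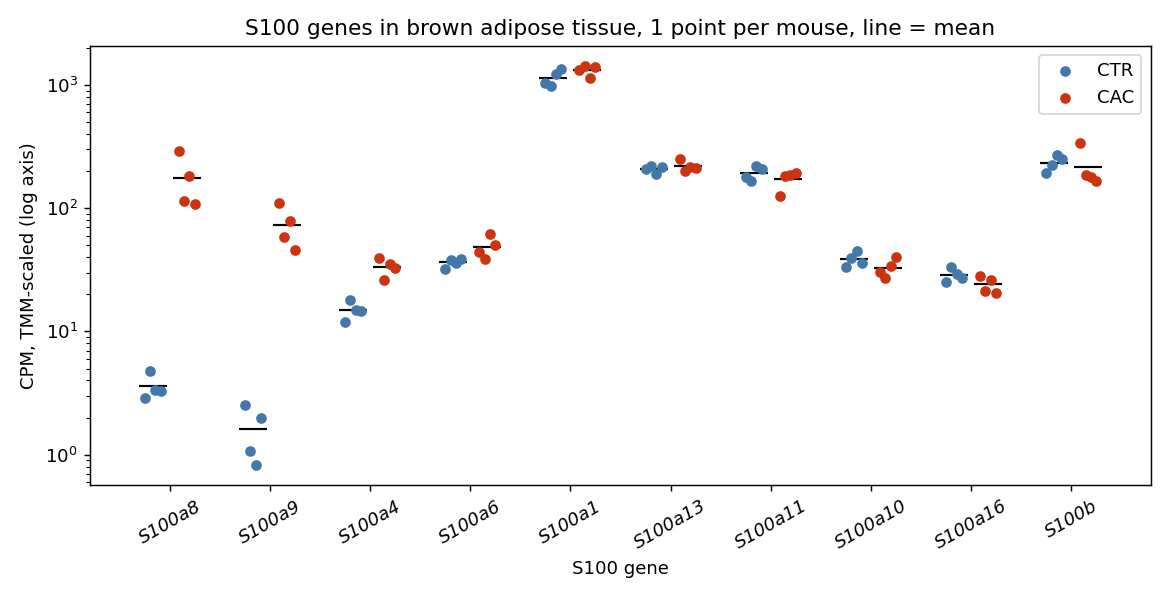
Expression of the 10 S100 genes in each library, as TMM-scaled CPM on a log axis, with CTR mice in blue, CAC mice in red and a line at each group mean. S100a8 and S100a9 move from at most 4.79 CPM in the CTR libraries to at least 46.0 CPM in the CAC libraries, S100a4 and S100a6 separate without overlap, and the other 6 genes overlap between the groups.

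S100a8, a subunit of calprotectin, had counts of 8, 18, 8 and 15 in the CTR libraries and of 543, 217, 618 and 312 in the CAC libraries. These equal 2.88, 4.79, 3.32 and 3.31 CPM in CTR replicates 1 to 4 and 294, 115, 181 and 109 CPM in CAC replicates 1 to 4. CAC replicates 1 and 3 were the highest and CAC replicates 2 and 4 the lowest, and even the lowest lay far above every CTR library. The mean rose 48.9-fold, with an edgeR log2 fold change of 5.57 (95% interval 4.43 to 6.71, adjusted p = 0.00515).

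S100a9, the partner of S100a8, was at 2.52, 1.07, 0.830 and 1.98 CPM in CTR replicates 1 to 4 and at 110, 58.5, 79.1 and 46.0 CPM in CAC replicates 1 to 4. The CAC libraries stood in the order seen for S100a8, and again the groups were far apart. The mean rose 45.9-fold, with an edgeR log2 fold change of 5.45 (95% interval 4.56 to 6.33, adjusted p = 0.000182). In CTR this rests on 22 reads in all, and CTR replicate 3 with 2 reads lies under the limit of 3 counts. The pooled counts give a 43.8-fold difference with an exact 95% interval of 28.7 to 70.4 for S100a9 and a 46.4-fold difference with an interval of 35.0 to 63.0 for S100a8, which cover counting error only. All reads of S100a8 and S100a9 were whole, so neither gene shared reads with another place.

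There were 1.14, 4.50, 4.00 and 1.67 reads of S100a8 for each read of S100a9 in CTR replicates 1 to 4, and 2.66, 1.97, 2.29 and 2.36 in CAC replicates 1 to 4. The CAC ratios thus lay inside the wide range of the CTR ratios. Together the pair made up 0.204% to 0.339% of the summed CPM of the 10 S100 genes in CTR and 6.82% to 15.6% in CAC.

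S100a4, also called fibroblast-specific protein or metastasin, was at 11.9, 17.8, 14.9 and 14.8 CPM in CTR replicates 1 to 4 and at 39.5, 26.1, 35.2 and 32.8 CPM in CAC replicates 1 to 4. The lowest CAC library lay above the highest CTR library. The mean rose 2.25-fold, with an edgeR log2 fold change of 1.16 (95% interval 0.81 to 1.50, adjusted p = 0.000453). In 3 libraries S100a4 held fractions of reads, which it shares with another place in the annotation or genome.

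S100a6 (calcyclin), whose gene follows those of S100a4 and S100a5 in the cluster, was at 32.4, 38.4, 36.1 and 38.6 CPM in CTR replicates 1 to 4 and at 43.8, 38.8, 61.5 and 49.9 CPM in CAC replicates 1 to 4. The groups did not overlap, although CAC replicate 2 lay only just above CTR replicate 4. The edgeR log2 fold change was 0.43 (95% interval 0.14 to 0.72), with an unadjusted p of 0.00558 and an adjusted p of 0.158. The increase therefore did not pass the test, and without CAC replicate 3 the log2 fold change was 0.28.

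**Figure D2:**
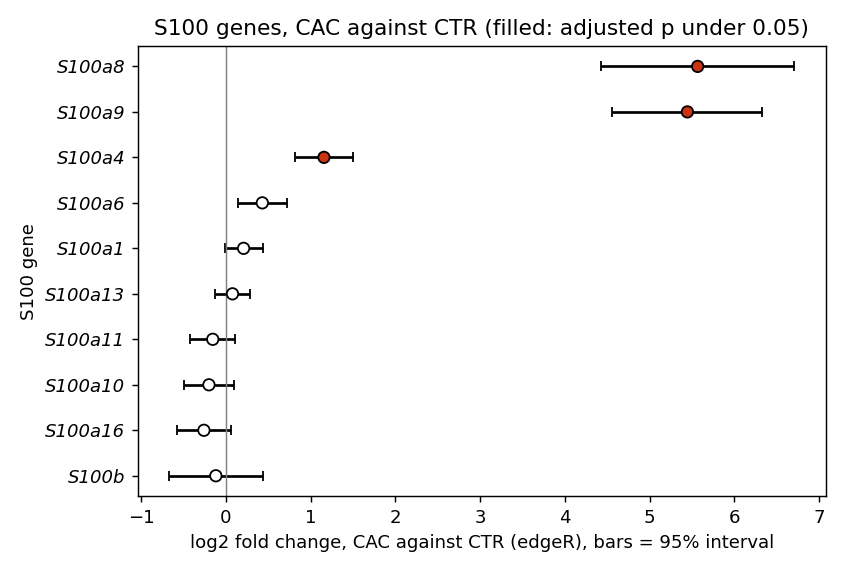
edgeR log2 fold change of each S100 gene in CAC against CTR, with 95% intervals and filled points for an adjusted p below 0.05. S100a8 and S100a9 lie above 5, S100a4 at 1.16, and the intervals of all other genes except S100a6 include 0.

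In the other 6 members the groups overlapped. S100a1, the calcium sensor of muscle, was the most abundant S100 gene in BAT, at 982 to 1342 CPM in CTR and 1131 to 1432 CPM in CAC, and its edgeR log2 fold change of 0.21 had a 95% interval of -0.01 to 0.43 (adjusted p = 0.423). S100a1 alone made up 56.8% to 62.8% of the summed CPM of the 10 genes in CTR and 51.4% to 62.5% in CAC. S100a13, which takes part in the release of FGF1 and lies head to head with S100a1, ranged over 191 to 221 CPM in CTR and 202 to 252 CPM in CAC (log2 fold change 0.08, 95% interval -0.13 to 0.28, edgeR adjusted p = 0.804).

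S100a11, which binds annexin A1, ranged over 167 to 218 CPM in CTR and 126 to 194 CPM in CAC (log2 fold change -0.16, 95% interval -0.42 to 0.11, edgeR adjusted p = 0.655). CAC replicate 1 was the library at 126 CPM, and without it the log2 fold change was -0.03. S100a10 (p11), which forms a complex with annexin A2, ranged over 33.5 to 44.8 CPM in CTR and 27.1 to 40.1 CPM in CAC (log2 fold change -0.20, 95% interval -0.50 to 0.10, edgeR adjusted p = 0.597). S100a16, described as a promoter of adipogenesis, ranged over 25.2 to 33.3 CPM in CTR and 20.6 to 28.1 CPM in CAC (log2 fold change -0.26, 95% interval -0.58 to 0.06, edgeR adjusted p = 0.500). In these 3 genes an increase as large as that of S100a4 lies outside each interval.

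S100b, which brown adipocytes release as a signal to sympathetic nerves and Schwann cells also make, was at 193, 226, 272 and 249 CPM in CTR replicates 1 to 4 and at 338, 185, 178 and 168 CPM in CAC replicates 1 to 4. CAC replicate 1 was the highest of the 8 libraries, whereas the other 3 CAC libraries lay below every CTR library. With all libraries the edgeR log2 fold change was -0.12 (95% interval -0.67 to 0.43, adjusted p = 0.893), and without CAC replicate 1 it was -0.40 (adjusted p = 0.0949), so that neither passed the test. The summed Schwann cell list was not raised in CAC replicate 1, at 65.4 CPM against 74.4 to 101 CPM in the other CAC libraries and 60.1 to 87.6 CPM in CTR. The summed brown adipocyte list was 22746 CPM in CAC replicate 1 and 20022 to 22118 CPM in the other CAC libraries.

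**Figure D3:**
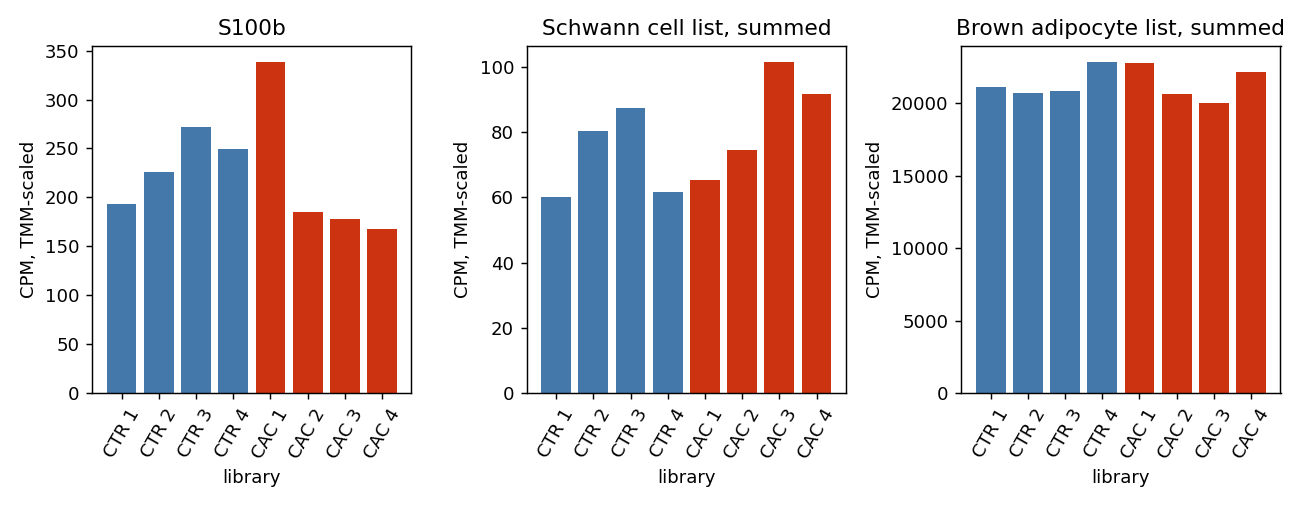
S100b, the summed Schwann cell list and the summed brown adipocyte list in each library, as TMM-scaled CPM, with CTR in blue and CAC in red. S100b stands at 338 CPM in CAC replicate 1 against 168 to 185 CPM in the other CAC libraries, while neither list shows a step of that size.

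S100a8, S100a9 and S100a4 were set against the rest of the family by the log2 ratio of each to each of the 7 other members within a library, with 0.5 added to the CPM. Of 21 ratios, 20 were higher in CAC without overlap between the groups (p = 0.0286 by exact two-sided permutation, which is as low as 4 mice in each group can give, adjusted over the 21 ratios to 0.030). These ratios share their genes and are not independent. The 3 genes are those called above, and S100a8 and S100a9 passed the low-count filter only through the CAC libraries. The ratios therefore restate the rise of these genes, and the count of 20 is a description. For S100a8 the ratios rose by 4.93 (to S100a6) to 5.58 (to S100a16) on the log2 scale and for S100a9 by 4.75 to 5.40. For S100a4 they rose by 0.75 against S100a6 to 1.396 against S100a16. The exception was S100a4 to S100a1, at -6.22 ± 0.33 (SD, n = 4) in CTR and -5.30 ± 0.35 in CAC, where 1 CAC library lay within the CTR range (exact permutation p = 0.0571, and 0.0571 after adjustment).

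**Figure D4:**
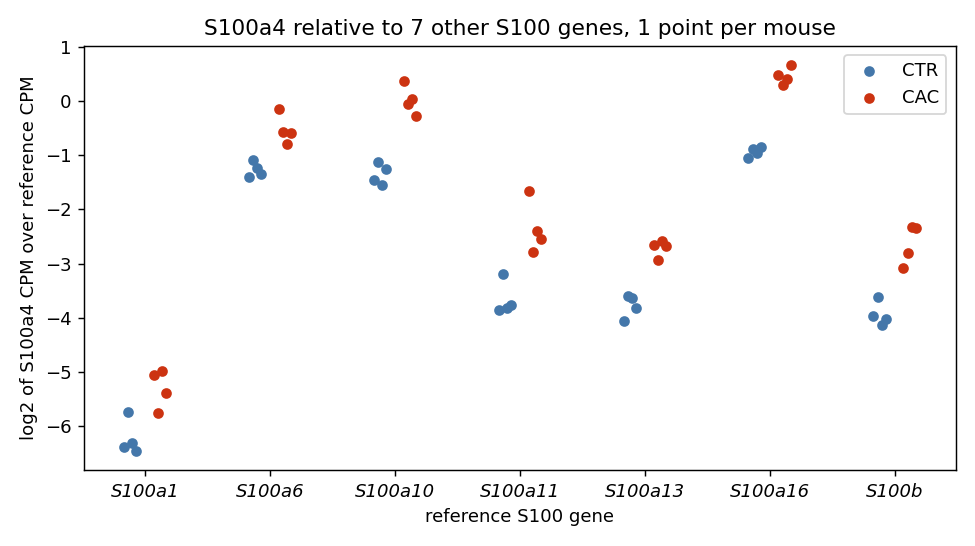
Log2 ratio of S100a4 to each of the 7 other S100 genes in every library, with 0.5 added to the CPM, CTR in blue and CAC in red. The groups separate for every reference gene except S100a1, and the smallest separated shift is that against S100a6, at 0.75.

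Levels were compared between genes per kilobase of annotated exon. In CTR the order was S100a1 (1650 ± 240 CPM per kb, SD, n = 4), S100a11 (377 ± 47.2), S100a13 (292 ± 17.8), S100b (158 ± 22.6), S100a10 (31.7 ± 4.03), S100a6 (26.6 ± 2.10), S100a4 (25.4 ± 4.17), S100a16 (17.8 ± 2.16), S100a8 (5.15 ± 1.21) and S100a9 (3.06 ± 1.51). The ranges of neighbours in this order overlapped for S100a10, S100a6, S100a4 and S100a16 in turn and for S100a8 and S100a9. In CAC, S100a8 (252 ± 123 CPM per kb) and S100a9 (141 ± 53.8) took the fourth and the sixth place, and S100a8 overlapped S100a13 (308 ± 30.4) and S100b (146 ± 54.4), which also overlapped S100a9. S100a4 (57.1 ± 9.59) followed, ahead of S100a6 (35.5 ± 7.16) with overlapping ranges, and S100a1 stayed first at 1907 ± 194 CPM per kb. The authors named the libraries Digital mRNA-seq, and the sources do not say whether this kit spreads reads along the transcript. The order per kilobase depends on that. By mean CPM without the length, S100a6 (48.5) lay above S100a4 (33.4) and S100b (217) above S100a8 (175) in CAC. In CTR, S100b (235 CPM) then lay above S100a11 (193 CPM).

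Of the 8 other S100 genes in the table, S100a2, S100a3, S100a5, S100a7l2 and S100z had 0 counts in all libraries, and S100a7a had no more than a fraction of a read in any. S100a14, an epithelial member, had 1 read in CTR and 7 in CAC in all, and S100g, the calcium-binding protein calbindin-D9k, had 3 and 6. None of the 8 passed the low-count filter, and in a library without a read a level of up to 3 counts (0.661 to 1.62 CPM) is allowed.

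Lists of neutrophil and of monocyte and macrophage markers were read beside S100a8, S100a9 and S100a4. The 22 neutrophil markers, a list without S100 genes, summed to 11.2 to 12.0 CPM in CTR and to 55.1, 39.9, 47.8 and 30.7 CPM in CAC replicates 1 to 4. Among the CAC libraries the sum stood in the order of S100a8 and S100a9, as did Lcn2, at 5.41, 2.13, 3.81 and 1.74 CPM. Other single markers ranked these libraries differently. Retnlg, at 19.5, 4.79, 13.5 and 5.23 CPM, was highest in CAC replicate 1 and lowest in CAC replicate 2, as were Csf3r and Mmp8. By contrast, Ngp and Cxcr2 were lowest in CAC replicate 1. Mmp9, at 9.73, 17.5, 8.20 and 8.37 CPM in CAC replicates 1 to 4, was highest in CAC replicate 2. No read fell on 10 of the 22 in any CTR library, among them Ly6g, Camp, Cxcr2 and Mpo, whereas in CAC the sole marker without a read was Ceacam10. Most stayed near the limit of detection, with Cxcr2 at 2, 5, 7.5 and 4 counts, Ngp at 3, 4, 9 and 7 and Ly6g at 1, 0, 1 and 0 in CAC replicates 1 to 4. Only 3 of the 22 could be tested, of which Retnlg and Il1r2 passed the low-count filter only through the CAC libraries, where they are high. All 3 had positive log2 fold changes, with a median of 1.03. All 3 also had an edgeR unadjusted p below 0.05, against 12.9% of all genes tested. The 1 called higher, against 0.739% of all genes tested, was Retnlg, a resistin-like gene of neutrophils (log2 fold change 3.40, edgeR adjusted p = 0.0155). It was not called once CTR replicate 1, 2 or 4 was left out. In bulk tissue, more cells of a type and more RNA per cell cannot be told apart, and the part of neutrophils in the rise of S100a8 and S100a9 was not tested.

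**Figure D5:**
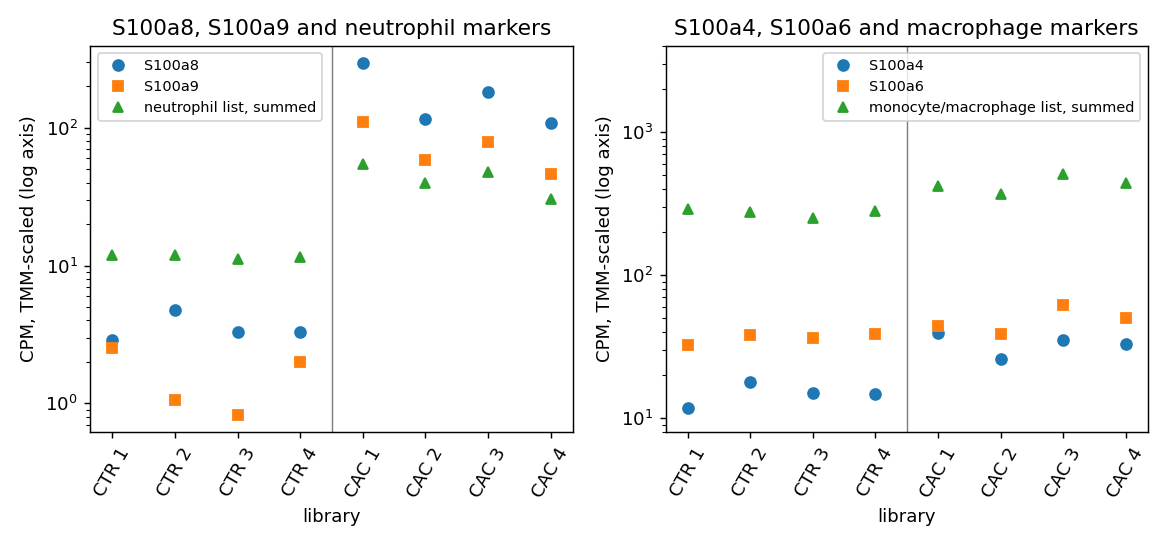
S100a8 and S100a9 beside the summed neutrophil list (left), and S100a4 and S100a6 beside the summed monocyte and macrophage list (right), in each library as TMM-scaled CPM on log axes. The neutrophil list rises from 11.2 to 12.0 CPM in CTR to 30.7 to 55.1 CPM in CAC, and the macrophage list from 251 to 290 CPM to 368 to 509 CPM.

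The 23 monocyte and macrophage markers summed to 251 to 290 CPM in CTR and to 418, 368, 509 and 443 CPM in CAC replicates 1 to 4. Of 13 tested, all had positive log2 fold changes with a median of 0.71, and 5 were called higher, among them C1qa, C1qb, Fcer1g and Tyrobp, or 3 without CAC replicate 3, CAC replicate 4 or CTR replicate 2, against 0.739% of all genes tested. Among the 13, Ccr2 and Lyve1 passed the low-count filter only through the CAC libraries, and neither was called. CAC replicate 2 was the lowest CAC library of this list and also of S100a4 and S100a6, and CAC replicate 3 was the highest of the list and of S100a6 but not of S100a4. Of the 18 fibroblast and progenitor markers, 15 were tested, with 8 positive and 7 negative log2 fold changes and a median of 0.14. In edgeR's test 4 of the 15 had an unadjusted p below 0.05, against 12.9% of all genes tested. The 1 called higher, against 0.739% of all genes tested, was Ly6a. Ly6a was higher by 1.02 on the log2 scale (edgeR adjusted p = 0.000238) and holds fractions of reads in 7 libraries. The summed list overlapped between the groups, at 1342 to 1618 CPM in CTR and 1155 to 1641 CPM in CAC. The part of macrophages and fibroblasts in the rise of S100a4 was not tested.

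The 13 skeletal muscle markers, which bear on S100a1, summed to 1504 to 3689 CPM in CTR and 3238 to 5847 CPM in CAC, with 13 of 13 log2 fold changes positive, a median of 0.96 and 0 called (edgeR, with 8 at an unadjusted p below 0.05, against 12.9% of all genes tested). Among the CAC libraries, replicate 3 had the highest list sum and the lowest S100a1 level, at 1131 CPM, and replicate 1 had the lowest list sum with S100a1 at 1333 CPM. The part of muscle in the S100a1 level was not tested.

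By the root mean square difference of log2 CPM over the 8 libraries, after each gene's CTR mean was subtracted, S100a8 lay 0.49 from S100a9. Outside the family and with a mean of at least 5 CPM, the 5 nearest genes were Ifitm1 (0.69), Retnlg (1.82), Csf2rb (2.47), Wfdc17 (2.50) and Gm7413 (2.54). Of these 5, Ifitm1 lay nearest to S100a9 but farther than S100a8, and it shares fractions of reads in 5 libraries. Gm7413 holds fractions in 7 libraries and was not called (edgeR adjusted p = 0.643), nor was Wfdc17 (0.0623).

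No tested gene of the receptor, partner and regulator lists was called. Of 12 receptor and co-receptor genes, 5 were tested and 0 were called in edgeR's test, with 3 positive and 2 negative log2 fold changes, a median of 0.09 and 1 unadjusted p below 0.05, against the same 12.9%. That gene was Bsg, which encodes the S100A9 receptor basigin, at a mean of 199 ± 10.9 CPM (SD, n = 4) in CTR against 245 ± 28.9 CPM in CAC (log2 fold change 0.30, edgeR adjusted p = 0.196). Tlr4 and Ager were too low for the test, with 1 to 8 counts of Tlr4 per CTR library and 3 to 11 per CAC library, and 0 to 7 counts of Ager per library. Cd36, a fatty acid carrier to which S100A8/A9 can deliver arachidonic acid, was at 307 ± 22.9 and 326 ± 12.1 CPM (log2 fold change 0.09, edgeR adjusted p = 0.745).

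Of 14 intracellular partners, 12 were tested and 0 were called in edgeR's test, against 0.932% of all genes tested. There were 6 log2 fold changes in each direction, with a median of 0.08. An unadjusted p below 0.05 was found for 3 of them, against 12.9% of all genes tested. Anxa2, the annexin bound by S100A10, had 287 ± 35.9 CPM (SD, n = 4) in CTR against 208 ± 52.1 CPM in CAC (log2 fold change -0.47, edgeR adjusted p = 0.192). Anxa6 was at 220 ± 43.6 and 275 ± 11.2 CPM (log2 fold change 0.32, edgeR adjusted p = 0.231) and Iqgap1, a scaffold protein, at 64.5 ± 5.38 and 78.4 ± 9.19 CPM (log2 fold change 0.28, edgeR adjusted p = 0.296).

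Of 10 transcription factors that act on S100a8 and S100a9, 8 were tested and 0 were called in edgeR's test, against 0.932% of all genes tested. There were 4 log2 fold changes in each direction, with a median of 0.01. An unadjusted p below 0.05 was found for 2 of them, against 12.9% of all genes tested. Stat3 had 81.3 ± 5.50 CPM (SD, n = 4) in CTR against 106 ± 3.87 CPM in CAC without overlap between the groups (log2 fold change 0.38, edgeR adjusted p = 0.0881). Over all genes tested, 3.64% were higher in CAC without overlap. Cebpd was at 3.37 ± 1.00 and 5.50 ± 1.41 CPM (log2 fold change 0.79, edgeR adjusted p = 0.282) and Cebpb at 26.6 ± 2.23 and 21.1 ± 4.88 CPM (log2 fold change -0.32, edgeR adjusted p = 0.418). Of the 8 tested, Cebpd passed the low-count filter only through the CAC libraries, where it is higher.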

How the data were processed

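Single-end RNA-seq libraries were made from the BAT of 8 mice. After a FastQC check, the authors mapped reads to mm10 using HISAT2 2.2.1 and counted them with featureCounts using the multi-mapping option, and the strand setting is not given in the sources used here. The deposited counts are expected counts, since 25.1% to 28.4% of the nonzero values of a library hold fractions of reads. A deposited signal made by the authors with DESeq2 size factors served only as an alternative.

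After rounding, edgeR (version 4.0.16, R version 4.3.3) filtered genes with filterByExpr, scaled libraries by TMM and compared CAC with CTR by its quasi-likelihood test with robust dispersion and Benjamini-Hochberg adjustment over 9876 genes at 0.05. The standard error is the log2 fold change over the square root of F, and 95% intervals use the t distribution of the fit. CPM for every gene use the TMM-scaled library sizes of the tested genes. Ratios were tested by exact two-sided permutation over 70 assignments. In data simulated for this comparison over 9876 genes, 81 of 96 genes changed by a log2 of 1, 88 of 91 changed by 2 and 6 of 9449 unchanged genes were called.

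The members and lists were chosen with earlier results of these data known. Genes named are the members, other S100 genes, in each list the genes with the smallest p or a call, and the 5 nearest to S100a9, with others chosen after their values were seen, and 1 gene is not reported here by name. The lists cover 11 cell types, S100 receptors, S100 partners and regulators of S100a8 and S100a9. Gene IDs matched GENCODE M21 without version for 91.4%. Other settings tried were DESeq2 (version 1.42.0), scaling by library size or upper quartile, no filter, at least 10 counts in every library, fractions dropped, limma-trend (limma 3.58.1) on the log2 of the deposited signal plus 1, the replicate number as a block, each library left out and a pseudocount of 2. Protein sequences, proteomics and qPCR were not used here. Permutations, ratios and figures used Python (version 3.11.15) with numpy (version 2.4.6), pandas (version 2.3.3) and matplotlib (version 3.10.9).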

Additional observations from a re-analysis of the deposited data

Results flagged for a closer look

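In 2 of 48 groups of 4 libraries, taken over the 10 S100 genes and the 14 lists, a library stood well apart, where 2.4 groups (about 1 in 20) would do so by chance. S100b reached 338 CPM in CAC replicate 1 against 168 to 185 CPM in the other CAC libraries, a gap of 0.90 of the range of the group. S100a11 stood at 126 CPM in CAC replicate 1 against 183 to 194 CPM in the other CAC libraries, a gap of 0.83 of the range. The cause of either was not tested.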

How the results depend on the processing

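S100a8, S100a9 and S100a4 were called in each of the 8 fits that left out 1 library, and the count of S100 genes called stayed at 3 there. Under the other alternatives it was 3 as well, except that it was 1 with at least 10 counts in every library, a filter that removes S100a8 and S100a9 because their CTR counts are low. Over the fits that left out 1 library, log2 fold changes ranged from 5.22 to 5.75 for S100a8, 5.21 to 5.67 for S100a9 and 1.07 to 1.26 for S100a4, with an edgeR adjusted p of at most 0.0403 for S100a8, without CTR replicate 1. The 7 other members were not called and kept their sign in every fit run. The log2 fold change of S100b ranged from -0.40 without CAC replicate 1 to -0.01 without CAC replicate 4. Over all genes, 92 were called, against 351 without a filter, 140 with the replicate number as a block, 60 without CAC replicate 3 and 42 to 135 over all libraries left out. Nothing in the labels says that the replicate numbers pair the mice. The correlation of deviations from the group means was between -0.02 and 0.04 in same-numbered libraries and between -0.05 and 0.04 in the others. These values cannot settle whether the mice were paired. The block changed no call among the S100 genes. Of the 21 ratios, 20 separated the groups with a pseudocount of 2, which gave S100a9 shifts of 3.96 to 4.59 on the log2 scale in place of 4.75 to 5.40, and 20 under library size scaling, which nearly cancels in a ratio within a library. Fits that left out 1 library called 0 neutrophil markers without CTR replicates 1, 2 or 4, 3 macrophage markers without CAC replicates 3 or 4 or CTR replicate 2, and 2 fibroblast markers without CAC replicates 1, 3 or 4. Skeletal muscle markers called rose from 0 to 1 or 2 without CAC replicate 1, CTR replicate 2 or CTR replicate 3, brown adipocyte markers from 0 to 2 without CTR replicate 4, and partners from 0 to 1 without CAC replicate 1. Without a filter, 4 neutrophil, 3 fibroblast, 2 brown adipocyte, 2 erythroid, 1 skeletal muscle and 1 partner gene were called, against 1, 1, 0, 1, 0 and 0. Among the 10 S100 genes, S100a9 had the fewest CTR reads, 2 to 9 per library.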

Other observations

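Other cell type lists were examined beside the S100 genes. Of 14 endothelial markers, 13 were tested, with 6 positive and 7 negative log2 fold changes and a median of -0.02. Of these, 4 had an unadjusted p below 0.05 and 2 were called higher in CAC, against 12.9% and 0.739% of all genes tested, the VEGF receptor gene Flt1 (log2 fold change 0.53, edgeR adjusted p = 0.0166) and the junction gene Esam (0.62, adjusted p = 0.0201). Without CTR replicate 1, 0 of them were called, and 5 other fits that left out 1 library called 1. The smooth muscle and pericyte list had 9 tested genes, with 0 called in edgeR's test and a median of 0.05. Of the 9, 3 had an unadjusted p below 0.05, against 12.9% of all genes tested. Cnn1 of this list passed the low-count filter only through the CAC libraries. Of the 16 brown adipocyte markers, 0 were called and 5 had an unadjusted p below 0.05, against the same 12.9%, with a median log2 fold change of 0.03. The T, NK and B cell, Schwann cell and keratinocyte lists had 1, 3 and 1 tested genes and 0 called in edgeR's test, with 0 at an unadjusted p below 0.05.

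The 8 erythroid genes summed to 6190 to 19287 CPM in CTR and to 44357, 14651, 37934 and 23700 CPM in CAC replicates 1 to 4. The groups overlapped, and CTR replicate 3, with the 19287 CPM, had S100a8 at 3.32 CPM, against 115 CPM in CAC replicate 2 with the lowest CAC sum. Within CAC, replicates 1 and 3 were the highest in this sum and also in S100a8 and S100a9. The lowest was CAC replicate 2 for the sum and CAC replicate 4 for S100a8 and S100a9. All 7 tested erythroid genes had positive log2 fold changes with a median of 1.47, and 6 had an unadjusted p below 0.05, against 12.9% of all genes tested. Of the 7, 1 was called (0.739% of all genes were called higher), the red cell anion exchanger gene Slc4a1 (log2 fold change 3.88, edgeR adjusted p = 0.00343). It passed the low-count filter only through the CAC libraries. The part of blood in the S100a8 and S100a9 levels was not tested.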
